A study of Mus musculus with 15 samples.

Results

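Heat shock chaperones are the proteins that bind unfolded or stressed proteins and help them to fold again. The 10 genes described here were taken by name from the 52526 genes measured in the mammary tissue of 15 mice: Hspa1a and Hspa1b, which encode the stress-inducible HSP70, Hspa8, which encodes the constitutive HSC70, Hsp90aa1 and Hsp90ab1, which encode the inducible and the constitutive cytosolic HSP90, Hspb1 (the small heat shock protein HSP27, named HSP25 in mouse), Dnajb1 (an HSP40 co-chaperone), Hsph1 (HSP110), and Hspd1 and Hspe1 (the mitochondrial chaperonins HSP60 and HSP10). All 10 were found in the data, and all 10 passed the filter on low values that left 9511 genes for testing.

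The mice were female nude mice (nu/nu, Crl:NU-Foxn1nu), an athymic strain that lacks mature T cells, and adult when exposure began. For 16 weeks they carried subcutaneous osmotic pumps that released either BDE-47, a polybrominated diphenyl ether flame retardant, in PEG300 with 1% DMSO (n = 7), or that vehicle alone (n = 8). Both groups therefore shared the pump, the solvent and the athymic background. RNA came from the left 4th mammary tissue, 1 library per mouse, and the labels do not say which mice carried a xenograft, a covariate of the study. The comparison asks whether long exposure to BDE-47 changed the transcript levels of these chaperones.

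When proteins unfold in the cytosol, the transcription factor HSF1 is released from chaperones, forms trimers and binds heat shock elements in the promoters of chaperone genes. HSP40 proteins deliver unfolded clients to HSP70, HSP110 proteins exchange the nucleotide of HSP70, HSP90 matures kinases and steroid receptors, and small heat shock proteins hold unfolded proteins in solution. HSP60 and HSP10 form the folding chamber of the mitochondrial matrix. In mammary tissue, which is mostly fat with ducts of epithelium, such chaperones are made in every cell type, and heat, hypoxia, toxicants and the handling of tissue are all known to induce them.

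To look for heat shock elements, the 250 bases before each RefSeq transcription start (GRCm38.p6) were searched for GAANNTTC or TTCNNGAA. Each is a facing pair of the GAA units to which HSF1 binds. Both motifs read the same on either strand. Windows were given for 7 of the 10 genes, Hspa1a, Hspa1b, Hspb1, Dnajb1, Hsph1, Hspe1 and Hspd1, and 6 of these 7 held a pair, Dnajb1 being the exception. Some genes have more than 1 start. Counted by window, 7 of the 10 windows of these genes held a pair (70%), where 12.8% of all 32851 promoter windows of this length did. These windows are not independent. The Hsph1 windows from starts at 149636336 and 149636315 held the same pair, counted in each. Hspd1 and Hspe1 share a stretch and the Hspa1a and Hspa1b windows are near-identical, as given below. The difference between the shares was not tested. The Hsph1 and Hspd1 stretches below lie before starts at 149636336 and 55087932. Both starts are inside their gene and not at its outer end. The stretches that carry the motifs are shown 5′ to 3′ on the strand of the gene, with the pairs in capitals. Overlapping pairs run together.

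Hspa1a, chr17:34972223-34972290, minus strand: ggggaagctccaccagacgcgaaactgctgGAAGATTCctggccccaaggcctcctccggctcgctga
Hspa1b, chr17:34959305-34959372, minus strand: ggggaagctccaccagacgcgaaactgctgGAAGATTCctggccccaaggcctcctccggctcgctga
Hspb1, chr5:135887772-135887859, plus strand: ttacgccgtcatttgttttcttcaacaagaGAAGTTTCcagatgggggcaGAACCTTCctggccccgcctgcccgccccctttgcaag
Hsph1, chr5:149636351-149636380, minus strand: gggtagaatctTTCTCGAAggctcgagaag
Hspe1, chr1:55088053-55088082, plus strand: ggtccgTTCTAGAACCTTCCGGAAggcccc
Hspd1, chr1:55088053-55088082, minus strand: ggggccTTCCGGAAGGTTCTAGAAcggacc

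Hspa1a and Hspa1b had the same letters over the stretch shown, and 98.8% of the 250 bases before their starts were identical. Their genes lie on the same strand of chromosome 17, at 34969359 to 34972156 and 34956429 to 34959238, with 10120 bases between them. Hspd1 (chromosome 1, 55077833 to 55088243) and Hspe1 (55088148 to 55091317) lie head to head and overlap by 96 bases. The stretch shown for both is one stretch read from its 2 strands. It lies before the Hspe1 start and, on the other strand, before the Hspd1 start at 55087932. That start is inside the Hspd1 gene, and so is the stretch. This stretch held 3 overlapping pairs. The longer motifs GAANNTTCNNGAA or TTCNNGAANNTTC, which add a unit to the pair, were found there and in 0.466% of all windows. A match is a description of the letters and not of binding in these mice.

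Levels were read as log2(CPM), where CPM is the read count scaled to a common total of mapped reads and every gene under 1 CPM is listed at 0, the floor. Reads come from near the 3′ end of a transcript, so CPM of different genes can be set side by side without a correction for length. Depth was 11.97 to 16.51 M mapped reads with vehicle and 10.06 to 19.58 M with BDE-47, so that a level of 1 CPM stands for 10.06 to 19.58 reads.

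Some mice stood apart in what tissue they held. Markers of adipocytes were above the floor in every mouse (5 or 6 of 6 genes, with Lep at the floor in some) and so were all 6 luminal epithelial markers. The summed adipocyte level, however, was 375 and 907 CPM in vehicle replicates 6 and 8, against 3728 to 22956 CPM in the other 13 mice, and all 8 B cell markers were above the floor in these 2 mice with sums of 691 and 851 CPM. The other mice had 0 or 1 of the 8 above the floor and sums of 0 to 10 CPM. BDE-47 replicate 6 had a skeletal muscle sum of 74799 CPM, against 35 to 146 CPM elsewhere. The summed luminal level was 33.7 and 120 CPM in vehicle replicates 6 and 8 and 148 CPM in BDE-47 replicate 6, against 524 to 2582 CPM in the other 12 mice. The part of tissue makeup in the comparisons was not tested. In whole tissue, fewer cells of a type and less RNA per cell cannot be told apart.

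The chaperones differed widely in level. Together they summed to 950 to 2132 CPM in a mouse (median 1358 CPM), which was 0.095% to 0.213% of its mapped reads. Hsp90ab1 alone made up 65.9% to 82.0% of that sum (median 73.9%). Over the 15 mice the order of the median levels was Hsp90ab1 at 9.97 log2(CPM), Hsp90aa1 at 6.56, Hspa1b at 5.52, Hspd1 at 5.35, Hspb1 at 5.10, Dnajb1 at 5.02, Hspe1 at 4.79, Hspa1a at 3.99, Hsph1 at 3.98 and Hspa8 at 3.96. Hsp90ab1 was above Hsp90aa1 in 15 of 15 mice, by 3.50 ± 0.50 (SD, n = 15), and this was the sole pair of neighbours in the order whose mean difference exceeded its SD. Hsp90aa1 was above Hspa1b in 12 of 15 mice, by 1.69 ± 2.63. The places below Hsp90aa1 were therefore not separated by the spread between mice. The last place of Hspa8 is uncertain also because its 3′ end has near-copies in the genome, described below.

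**Figure D1:**
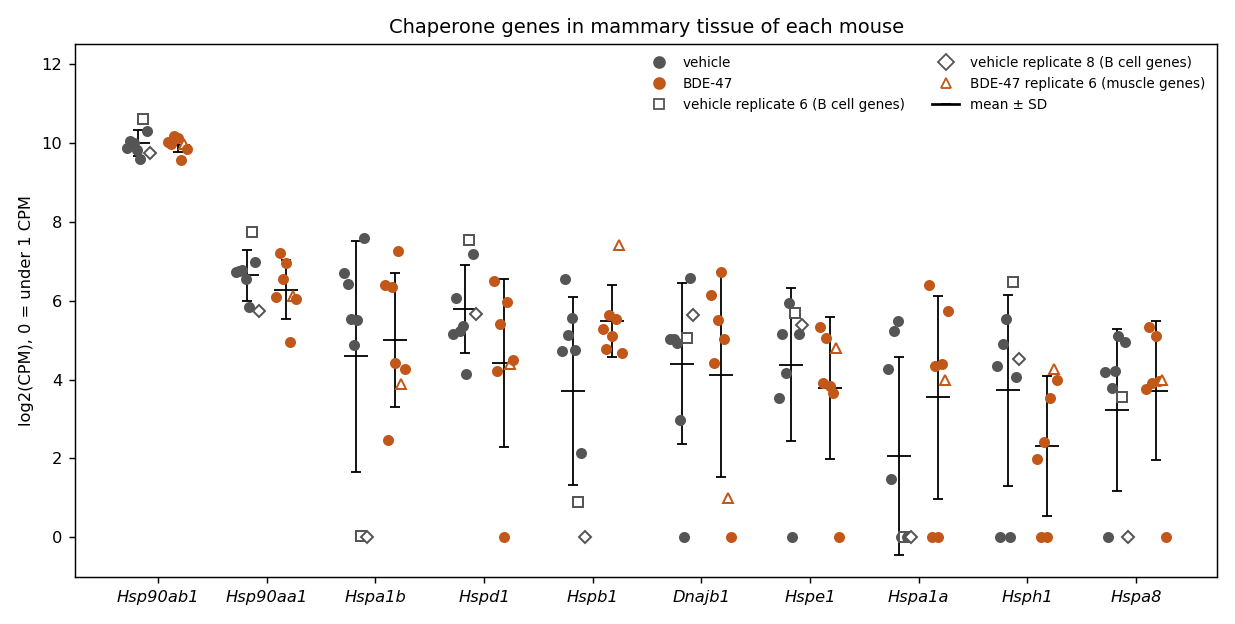
Level of each of the 10 chaperone genes in each mouse, in log2(CPM) on the vertical axis, with points for single mice, bars for the group mean and whiskers for the SD (vehicle n = 8, BDE-47 n = 7). Genes under 1 CPM are at 0. Hsp90ab1 lies between 9.57 and 10.59 in all mice, whereas Hspa1a is at 0 in 6 of 15.

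The HSP90 genes were the steadiest of the 10. Hsp90ab1, which keeps client kinases and receptors active in unstressed cells, ranged from 9.59 to 10.59 log2(CPM) with vehicle (median 9.92) and from 9.57 to 10.18 with BDE-47 (median 9.97). The ranges of the groups overlapped. Its level rested on 10206 to 23971 reads per mouse. Within groups its SD was 0.27, and of the 9511 genes tested only Krt1 and Eef2 had a smaller SD. Genes within 1 log2 unit of its mean level numbered 42, with a median SD of 0.55, and 1 of them varied less.

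Hsp90aa1, the stress-inducible HSP90, was above the floor in all mice too. It ranged from 5.73 to 7.75 log2(CPM) with vehicle (median 6.73) and from 4.94 to 7.21 with BDE-47 (median 6.12). The highest vehicle value was that of replicate 6 and the lowest that of replicate 8, both mice with B cell genes, and the ranges overlapped. Its within-group SD was 0.69, with 5.22% of tested genes below it. Both HSP90 genes were highest in vehicle replicate 6 and lowest in BDE-47 replicate 5, and their levels had a Pearson's r of 0.82 over the 15 mice, the highest of the 45 pairs among the 10 genes. It was 0.64 without these 2 mice, 0.92 within vehicle mice and 0.80 within BDE-47 mice. This pair was singled out after its value was seen, and all values share the total to which a library is scaled.

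The inducible HSP70 genes were at the other end of the range of spread. Hspa1a ranged from 0 to 5.49 log2(CPM) with vehicle (median 0.73, 4 of 8 mice above the floor) and from 0 to 6.39 with BDE-47 (median 4.35, 5 of 7 mice). Vehicle replicates 5, 6, 7 and 8 and BDE-47 replicates 2 and 4 were at the floor, while the 8 mice above 2 lay between 3.99 and 6.39. Hspa1b was above the floor in 14 of 15 mice and ranged from 0 to 7.59 with vehicle (median 5.53) and from 2.47 to 7.25 with BDE-47 (median 4.42). The mice with B cell genes were the lowest, at 0.04 and 0, and the other 6 vehicle mice lay between 4.88 and 7.59. The within-group SD was 2.54 for Hspa1a and 2.44 for Hspa1b, and 98.3% and 96.9% of tested genes varied less.

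Hspa1a and Hspa1b encode nearly the same protein. Their Pearson's r over 15 mice was 0.43 (permutation p = 0.114, adjusted p = 0.231 over 3 pairs) and Spearman's rho was 0.31 (permutation p = 0.262, adjusted p = 0.330). Of the mice, 6 were at the floor for Hspa1a and equally far from its median, and leaving out 2 of these 6 gave an r of 0.14 to 0.67 over the 15 choices, so its size depended on which mice were left out. In vehicle replicate 7 Hspa1a was at the floor and Hspa1b was at 7.59, its highest value. Of the 50-base windows of the Hspa1a transcript 58.8% occur in Hspa1b as well, but 0% of those in the last 300 bases, where the reads of this method are made. Reads from other places in these transcripts could still be split between them.

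Hspa8, the constitutive partner, ranged from 0 to 5.10 log2(CPM) with vehicle (median 3.98) and from 0 to 5.34 with BDE-47 (median 3.96), and 6 mice of each group had it above the floor. In the 12 mice above the floor it lay between 3.57 and 5.34, on at least 136 reads, while the 3 others (vehicle replicates 2 and 8, BDE-47 replicate 7) were at 0 with no value in between. The last 300 bases of Hspa8 have 7 near-copies elsewhere in the genome (at least 95% identity over at least 100 bases), more than any of the other 9 genes, so its counts are uncertain where reads map to several places. Hspe1 had 4 such copies, Hsp90ab1 and Hspd1 had 2 each, Hspb1 had 1, and the others had 0. Of the copies of Hspa8 named in the data, Gm6210 was above the floor in 1 mouse at 4.25 log2(CPM) and Gm7899 in 1 mouse at 2.15. Hsp25-ps1, the copy of Hspb1, was above the floor in 1 mouse at 3.58. Near-copies of Hspe1 overlap the genes Kmt2c, Ptpn12 and Commd10, which were above the floor in 15, 10 and 9 mice. How many of their reads came from the copies is not known. Of the 10 entries named with the symbol Hspd1 or Hspe1 and a pseudogene suffix, Hspd1-ps4 was above the floor in 4 mice, at up to 4.94, Hspe1-ps2 in 1 mouse at 1.41, and the other 8 in none.

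Hspb1 ranged from 0 to 6.55 log2(CPM) with vehicle (median 4.73) and from 4.68 to 7.40 with BDE-47 (median 5.27), and 7 of 7 BDE-47 mice exceeded the mean of the vehicle mice. The groups overlapped, since 5 of 8 vehicle mice were between 4.72 and 6.55. The low vehicle values were 0.90 and 0 in replicates 6 and 8 and 2.14 in replicate 7, and the highest BDE-47 value was that of replicate 6. Thus the mice with B cell genes held the lowest values of Hspb1 and the mouse with muscle genes the highest.

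Of the co-chaperones of HSP70, Dnajb1, which stimulates the ATPase of HSP70, ranged from 0 to 6.56 log2(CPM) with vehicle and from 0 to 6.74 with BDE-47, with a median of 5.02 in both groups. Hsph1, the exchange factor, ranged from 0 to 6.48 with vehicle (median 4.43) and from 0 to 4.27 with BDE-47 (median 2.43). It was at the floor in 2 of 8 vehicle and 2 of 7 BDE-47 mice, and 5 of 8 vehicle mice were above the highest BDE-47 mouse. Dnajb1 and Hspa1a, the co-chaperone and its partner, had a Pearson's r of -0.20 (permutation p = 0.466, the same after adjustment over 3 pairs) and a rho of -0.27 (permutation p = 0.330, likewise unchanged). Leaving out 2 of the 6 mice at the floor for Hspa1a gave an r of -0.48 to -0.02 over the 15 choices.

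Among the mitochondrial chaperonins, Hspd1 ranged from 4.13 to 7.54 log2(CPM) with vehicle (median 5.50, all 8 mice above the floor) and from 0 to 6.49 with BDE-47 (median 4.50, 6 of 7 mice). The 2 highest values were in vehicle replicates 6 and 7, and the one value at the floor was in BDE-47 replicate 4. Hspe1 ranged from 0 to 5.95 with vehicle (median 5.15) and from 0 to 5.32 with BDE-47 (median 3.91), with vehicle replicate 5 and BDE-47 replicate 7 at the floor. The ranges of both genes overlapped. Their rank order over mice was related, with a Spearman's rho of 0.66 (permutation p = 0.00882, adjusted p = 0.0265 over 3 pairs), whereas Pearson's r was 0.38 (permutation p = 0.154, adjusted p = 0.231). Leaving out BDE-47 replicate 4 and vehicle replicate 6 gave an r of 0.59. Within groups r was 0.70 in vehicle mice and 0.16 in BDE-47 mice.

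Values at the floor were spread over both groups. Of the 150 values of the 10 genes, 20 were at the floor, 12 of 80 with vehicle and 8 of 70 with BDE-47, and just 5 lay between the floor and 2 log2(CPM). Vehicle replicates 5 and 8 had 4 of the 10 genes at the floor, BDE-47 replicates 4 and 7 had 3 each, and 7 of 15 mice had none there. At the median level of Hspa8 the shallowest library would hold 157 reads, whereas the floor there stands for 10.06 reads.

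**Figure D2:**
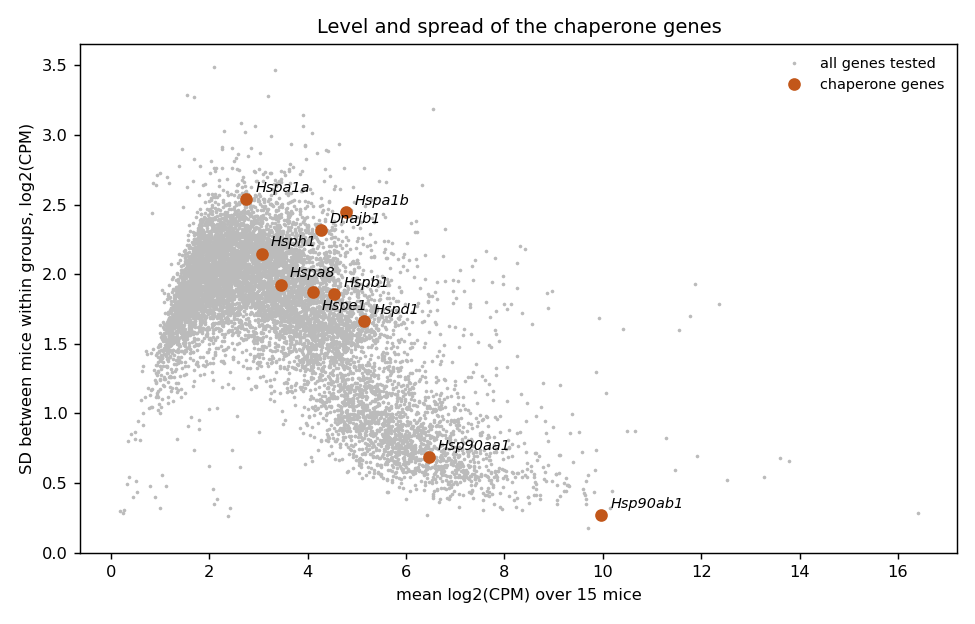
Mean log2(CPM) of each tested gene (horizontal axis) against its within-group SD in log2 units (vertical axis), with the 10 chaperones named over all 9511 tested genes in grey. Hsp90ab1 lies at the lower right with an SD of 0.27, and Hspa1a, Hspa1b and Dnajb1 lie near the top with SDs of 2.31 to 2.54.

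None of the 10 chaperones differed between BDE-47 and vehicle by a test across all genes. With limma on all 9511 genes, 0 of the 10 had a Benjamini-Hochberg adjusted p under 0.05 (0% of all tested genes did) and the lowest adjusted p was 0.982. At an unadjusted limma p under 0.05 there was 1, Hspb1, where 4.66% of all tested genes had one. With the exact permutation test (two-sided) there were 0 at an unadjusted p under 0.05, against 4.42% of all tested genes, and 0 after adjustment, against 0%. The BDE-47 mean was the higher one in 4 of the 10 genes and the lower one in 6. The median log2 difference was -0.16, beside -0.02 over all tested genes. A BDE-47 mean more than 2-fold higher was found for Hspa1a and Hspb1 (13% of tested genes), and one more than 2-fold lower for Hsph1 and Hspd1 (13.2%).

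The largest difference was that of Hspb1, whose level averaged 3.72 ± 2.38 log2(CPM) in the 8 vehicle mice and 5.49 ± 0.91 in the 7 BDE-47 mice (mean ± SD). The log2 difference was 1.77 (95% interval 0.10 to 3.44, limma p = 0.0386, adjusted p = 0.982), which is 3.40-fold, and the exact permutation test (two-sided) gave p = 0.0979. Without vehicle replicates 6 and 8 and BDE-47 replicate 6 it was 0.36 (95% interval -0.99 to 1.71, 6 mice in each group, exact permutation p = 0.665). These mice, left out together by a choice made after seeing the data, held the lowest vehicle values and the highest BDE-47 value. Leaving them out was therefore bound to make the difference smaller, and its size depended on them. Without vehicle replicates 6 and 8 alone the difference was 0.68, and with any single mouse left out it was 1.24 to 2.17.

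For Hspa1a the means were 2.06 ± 2.51 log2(CPM) in vehicle mice and 3.55 ± 2.57 in BDE-47 mice. The log2 difference was 1.49 (95% interval -0.92 to 3.91, limma p = 0.218, exact permutation p = 0.261) and was 0.73 without the 3 mice. For Hspa1b the means were 4.58 ± 2.94 and 5.00 ± 1.70, with a difference of 0.42 (95% interval -1.45 to 2.29, exact permutation p = 0.741) that turned to -0.91 without the 3 mice. Hspa8 differed by 0.50 (95% interval -1.54 to 2.54, exact permutation p = 0.676), and by -0.03 without them and 0.035 without vehicle replicate 2. The inducible and the constitutive HSP70 genes thus gave no shift beyond the spread between mice.

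Hsph1 and Hspd1 had the largest negative differences. Hspd1 averaged 5.79 ± 1.12 log2(CPM) in vehicle mice and 4.42 ± 2.13 in BDE-47 mice, a difference of -1.36 (95% interval -2.82 to 0.10, limma p = 0.0664, exact permutation p = 0.125). BDE-47 replicate 4, the mouse at the floor, decided much of its size, which was -0.63 without that mouse. Hsph1 had means of 3.73 ± 2.42 and 2.31 ± 1.77, a difference of -1.42 (95% interval -3.64 to 0.81, limma p = 0.206, exact permutation p = 0.218). The difference of Hspe1 was -0.58 (95% interval -2.39 to 1.22, exact permutation p = 0.521) and that of Dnajb1 was -0.28 (95% interval -2.21 to 1.64, exact permutation p = 0.823). Both turned sign with few mice, Hspe1 to 0.048 without BDE-47 replicate 7 and Dnajb1 to 0.56 without the 3 mice that stood apart.

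For the HSP90 genes the intervals were the narrowest. Hsp90ab1 averaged 9.99 ± 0.32 log2(CPM) in vehicle mice and 9.95 ± 0.20 in BDE-47 mice, a difference of -0.03 (95% interval -0.56 to 0.49, exact permutation p = 0.814), so a 2-fold change of this gene in either direction lay outside the interval. The sign of this small difference depended on scaling, being 0.06 with median-of-ratios size factors. Hsp90aa1 averaged 6.64 ± 0.64 and 6.27 ± 0.74, a difference of -0.36 (95% interval -1.27 to 0.55, exact permutation p = 0.331), and -0.14 without BDE-47 replicate 5. For the other 9 genes the intervals reached beyond a 2-fold change in at least one direction, so changes of that size are not bounded by these mice.

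**Figure D3:**
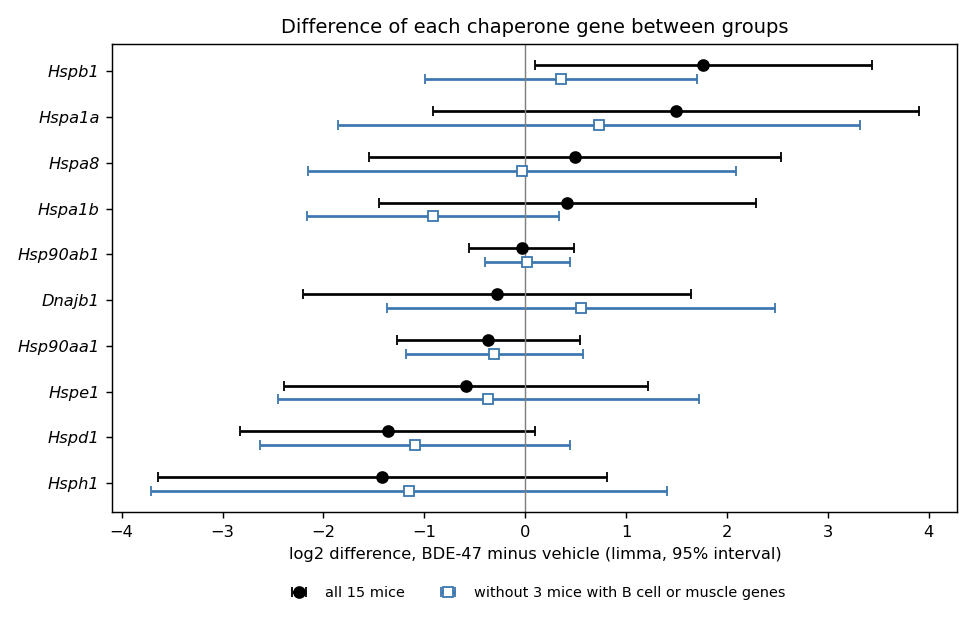
Log2 difference in mean level between BDE-47 and vehicle mice for each of the 10 genes (horizontal axis), with bars for the 95% interval of the limma fit, in all 15 mice and without vehicle replicates 6 and 8 and BDE-47 replicate 6. Hspb1 moves from 1.77 to 0.36 between the fits, and Hsp90ab1 has the narrowest interval, -0.56 to 0.49.

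Ratios within a mouse cancel its scaling to total reads where both terms are above the floor. A ratio with 1 term at the floor is a bound set by 1 CPM, and such bounds entered the means, SDs and tests as values. Inducible against constitutive HSP70, taken as log2 of summed Hspa1a and Hspa1b over Hspa8, was 1.67 ± 2.86 in vehicle mice and 1.92 ± 3.02 in BDE-47 mice, a difference of 0.25 (exact permutation test, two-sided, p = 0.866). The medians were 2.30 and 2.75. The last 300 bases of Hspa8 have 7 near-copies in the genome, and those of Hspa1a and Hspa1b have 0. The level of this ratio is therefore uncertain where reads map to several places. Its lowest value was -3.52, and its highest, 6.46 in vehicle replicate 2 and 6.18 in BDE-47 replicate 7, are lower bounds with Hspa8 at the floor. In vehicle replicate 8 both terms were at the floor. Without vehicle replicates 6 and 8 the difference was -0.89. The log2 ratio of Hsp90aa1 to Hsp90ab1 was below 0 in all 15 mice, at -3.35 ± 0.36 with vehicle and -3.68 ± 0.60 with BDE-47, a difference of -0.33 (exact permutation p = 0.214), or -0.17 without BDE-47 replicate 5. No term of this ratio was at the floor. Hspd1 over Hspe1 was above 0 in 12 of 15 mice, at 1.41 ± 1.40 with vehicle and 0.63 ± 2.56 with BDE-47, a difference of -0.78 (exact permutation p = 0.483) that was 0.16 without BDE-47 replicates 3 and 4. The medians were 1.34 and 0.37. Hspe1 was at the floor in vehicle replicate 5 (4.13) and BDE-47 replicate 7 (4.50), and Hspd1 in BDE-47 replicate 4 (-3.83), so these 3 values are bounds. None of the 3 ratios differed beyond the spread between mice.

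**Figure D4:**
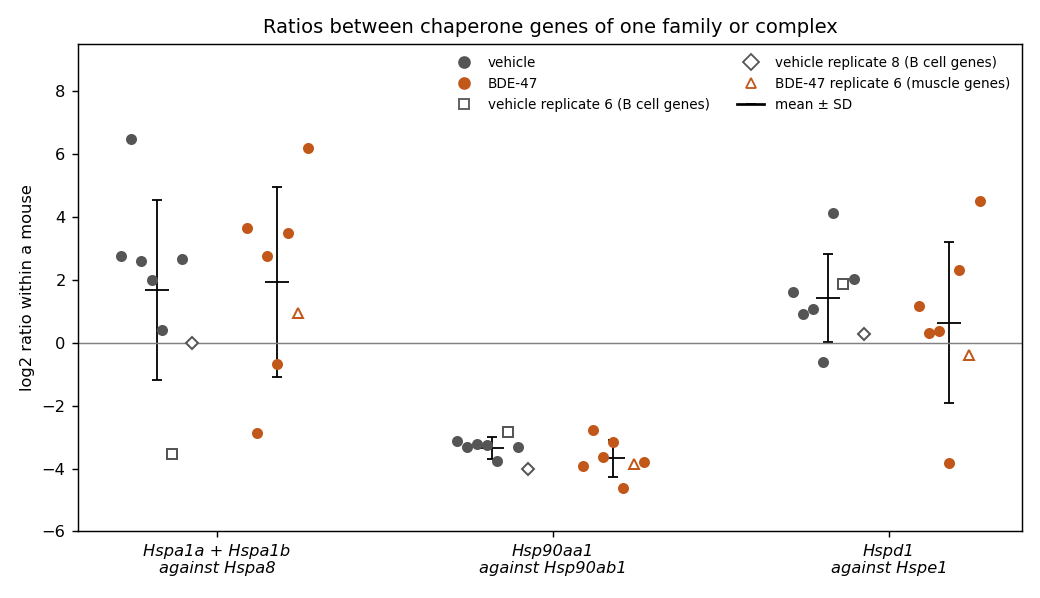
Log2 ratio of CPM within each mouse (vertical axis) for summed Hspa1a and Hspa1b over Hspa8, Hsp90aa1 over Hsp90ab1, and Hspd1 over Hspe1, with points for mice and bars for group mean and SD (vehicle n = 8, BDE-47 n = 7). The HSP90 ratio lies between -4.63 and -2.76, a narrower range than the other 2 ratios.

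The wider network of heat shock factors, chaperones and co-chaperones was described with a list of 68 further genes. Of these, 59 passed the filter, 0 passed the test in either direction, 3 had an unadjusted limma p under 0.05 (4.66% of all tested genes) and 1 an exact permutation p under 0.05 (4.42%). A higher mean with BDE-47 was found for 34 and a lower one for 25, where 49.1% of all tested genes had a higher mean. More than 2-fold higher were 8 (13% of all tested genes) and more than 2-fold lower were 10 (13.2%), and the median log2 difference was 0.12. Without the 3 mice that stood apart the balance turned, with 28 higher and 31 lower and a median of -0.07. Hsf1, the main factor of the response, was not tested, with 1 of 8 vehicle and 5 of 7 BDE-47 mice above the floor. Hsf2, a related factor, differed by 0.73 (95% interval -1.49 to 2.94).

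By family, the small heat shock proteins had higher means in 3 of 3 tested genes, with a median of 1.80, while 4 of the 7 listed were not tested. Without the 3 mice that stood apart 2 were higher and 1 lower, with a median of 0.29. Cryab, which encodes alpha B-crystallin and is abundant in muscle, ranged from 0 to 5.28 log2(CPM) with vehicle and from 0 to 9.98 with BDE-47. Its difference of 2.39 (95% interval 0.09 to 4.68, limma p = 0.0421, adjusted p = 0.982, exact permutation p = 0.116) was the largest of the list, and was 1.54 without BDE-47 replicate 6, the mouse with muscle genes. Hspb6, another small heat shock protein of muscle, differed by 1.80, and by 0.61 without that mouse. The HSP70 and HSP110 relatives had a lower mean in 6 of 7 tested genes and a median of -0.66, and Hspa2 was the one with a higher mean, at 1.57. Without the 3 mice, a choice made after seeing the data, the count was again 6 of 7. In all mice 1 of these 7 had an unadjusted limma p under 0.05 (4.66% of all tested genes). For all family counts here, 49.1% of all tested genes had a higher mean with BDE-47. The tested HSP40 genes split 8 higher and 7 lower (6 and 9 without the 3 mice), the mitochondrial genes 3 and 3 (2 and 4), the CCT chaperonin subunits 4 and 4, and the co-chaperones 14 and 5 (12 and 7). None of these families held a gene that passed the test.

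Bag5, an exchange factor of HSP70, had the largest negative difference of the list. It ranged from 3.97 to 6.16 log2(CPM) with vehicle (median 5.11) and from 0 to 5.69 with BDE-47 (median 2.85), with overlapping groups. Its difference was -2.47 (95% interval -4.30 to -0.65, limma p = 0.00921, adjusted p = 0.982, exact permutation p = 0.0107), and -2.06 without the 3 mice that stood apart. The next lower differences were those of Hspa14 at -1.82, Grpel2, a nucleotide exchange factor of mitochondria, at -1.67, Hspa13 at -1.67 and Bag4 at -1.50. On the positive side, Hspa2 was followed by Dnajb4, an HSP40, at 1.48 and Bag2, a regulator of HSP70, at 1.38, which was 0.62 without the 3 mice. None of these passed after adjustment.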

How the data were processed

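Mammary tissue of 15 nude mice (7 BDE-47, 8 vehicle, by the sample labels) was measured with QuantSeq 3′ FWD. The authors mapped reads with STAR (2.5.3a and GRCm38 in the submitters' processing notes) and normalized them to CPM. The deposited values are log2(CPM), with genes under 1 CPM at 0. Each mouse has 52636 entries. Where several share a name, the one with the highest mean was kept, which removed 110. Mapped reads per mouse were recovered from the step of 1 read, and 100% of the values under 100 CPM were whole (tolerance 0.1 read). A count test was not run, since the values are on a log scale. The depth sets counting error only, and p-values set a difference of means against the spread between mice.

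The 9511 genes at 1 CPM or more in 7 or more mice were tested with limma 3.58.1 (R 4.3.3, trend in the prior variance) with Benjamini-Hochberg adjustment over all of them, and with the exact permutation test, two-sided, of the difference of means (Python 3.11.15, numpy 2.4.6, scipy 1.17.1, pandas 2.3.3). Correlations used 100000 permutations. Presence of a xenograft, a covariate in the study, was not used because the labels do not give it per mouse. Near-copies were searched with blastn 2.17.0. Promoters came from RefSeq (GRCm38.p6). Steps were tested on simulated data. Figures were drawn with matplotlib 3.10.9.

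The 10 genes, the lists and the tests were chosen with earlier results of these data known. Text names all 10, Hsf1, Hsf2, the 5 largest rises and falls of the wider list, the 2 largest rises and falls of the immediate early genes, and the 5 genes most alike to the 10. Krt1 and Eef2 were named after their values were seen. Marker lists also covered keratinocytes, macrophages, endothelium and smooth muscle. The alternatives were pseudocounts, size factors, other filters, no trend, a replicate block, and mice left out.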

Additional observations from a re-analysis of the deposited data

Results flagged for a closer look

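Of 26 sets of values examined for a mouse far from the rest of its group (each of the 10 genes and the 3 ratios in each group), 5 held one. The rule flags about 1 in 20 sets of independent, normally distributed values. These sets are neither, since many values lie at the floor and the ratios reuse the genes, so the 5 cannot be set against that rate. Hspa8 was at 0 log2(CPM) in BDE-47 replicate 7, with the nearest mouse at 3.76. Hspb1 was at 7.40 in BDE-47 replicate 6, the mouse with skeletal muscle genes, with the nearest at 5.65. Hspe1 was at 0 in vehicle replicate 5, with the nearest at 3.54, and at 0 in BDE-47 replicate 7, with the nearest at 3.65. Hspd1 was at 0 in BDE-47 replicate 4, with the nearest at 4.20. In 4 of the 5 the distant value was thus a gene listed at the floor, where the value below 1 CPM is not known.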

How the results depend on the processing

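Under limma 0 of the 10 chaperones passed in each of 25 alternative runs. For the wider list 18 of these runs were read, and 0 of its genes passed in each. Without vehicle replicates 6 and 8 and BDE-47 replicate 6, 2 of all 9511 tested genes passed limma (lowest adjusted p = 0.0312). The exact permutation test gave 0 of 10 at an unadjusted p under 0.05, with a range of 0 to 1 when a mouse was left out (Hspb1 without vehicle replicate 2, p = 0.0361, and Hspd1 without BDE-47 replicate 1, p = 0.0483). Signs turned as follows, all with p above the threshold, and the cause was not tested. With size factors Hsp90ab1 was 0.058. Without vehicle replicates 6 and 8, Hspa1b was -1.10, Hsp90ab1 0.024, Dnajb1 0.034 and the HSP70 ratio -0.892. Leaving out BDE-47 replicate 6 as well, chosen after seeing the data, gave Hspa1b -0.914, Hspa8 -0.0286, Hsp90ab1 0.021, Dnajb1 0.555 and the HSP70 ratio -0.731. Without BDE-47 replicates 3 and 4, Hspd1 over Hspe1 was 0.164. Leaving out single mice, the ranges were Hspa1b -0.23 to 0.85, Hspa8 0.035 to 1.12, Hsp90ab1 -0.092 to 0.052, Dnajb1 -0.91 to 0.41, Hspe1 -1.21 to 0.048 and the HSP70 ratio -0.49 to 1.05. Hspb1 ranged from 1.24 to 2.17 and Hspd1 from -1.71 to -0.63.

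The deviations of same-numbered mice had an r of -0.018 to 0.053 (7 pairs), with 0 over the 0.1 set for a pairing. The numbers were therefore not taken to pair the mice. However, 7 of 14 mice correlated best with the mouse of their own number, and whether this exceeds chance was not tested. With the replicate number as a block, which drops vehicle replicate 8, 0 of 10 passed, Hspa1b was -0.235 and Hspb1 was 1.24. For Hspb1 an exact test that flips the signs of the differences within the 7 pairs gave p = 0.266.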

Other observations

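Immediate early genes, which the handling of tissue is known to raise together with heat shock genes, were listed beside the chaperones. Of the 23, 17 passed the filter, 0 passed the test, 2 had an unadjusted limma p under 0.05 (4.66% of all tested genes) and 0 an exact permutation p under 0.05 (4.42%). A higher mean with BDE-47 was found for 14 and a lower one for 3 (49.1% of all tested genes were higher), the median log2 difference was 0.55, and 5 were more than 2-fold higher (13%). Without vehicle replicates 6 and 8 and BDE-47 replicate 6 the split was 15 and 2, with a median of 0.75. The largest positive differences were those of Fos at 1.71, a subunit of the AP-1 factor, and Dusp1 at 1.69, a phosphatase of MAP kinases, and the largest negative ones those of Ier5 at -0.68 and Btg2 at -0.58.

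Of the marker lists, a higher mean with BDE-47 was found for 6 of 6 keratinocyte, 6 of 6 luminal epithelial and 6 of 6 skeletal muscle genes, 5 of 6 adipocyte genes, 3 of 6 endothelial genes, and 1 of 5 tested genes each for macrophages and smooth muscle. No B cell gene passed the filter. None of these genes passed limma after adjustment. An unadjusted limma p under 0.05 was found for 1 luminal, 1 keratinocyte and 2 endothelial genes (4.66% of all tested genes). An exact permutation p under 0.05 was found for 2 endothelial genes (4.42%). Vehicle replicates 6 and 8 and BDE-47 replicate 6 were then left out, a choice made after seeing the data. Adipocyte genes turned to 0 of 6 higher, with a median log2 difference of -0.73 in place of 0.43. The luminal median was then 0.42 in place of 1.09 and the skeletal muscle median 0.11 in place of 1.49, with 5 of 6 higher, while smooth muscle genes were higher in 0 of 5 and macrophage genes in 2 of 5. Keratinocyte genes stayed at 6 of 6 higher and endothelial genes at 3 of 6. In this fit 4 of 6 adipocyte genes had an unadjusted limma p under 0.05. So did 1 gene each of the keratinocyte, endothelial and smooth muscle lists, and 0 passed after adjustment. The summed adipocyte level of the mice kept was 7365 to 22956 CPM with vehicle and 5820 to 11884 CPM with BDE-47. The mice kept were thus not matched in this level.

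The 5 genes whose levels were most like the mean standardized level of the 10 chaperones over the 15 mice, among 5496 genes above the floor in at least 12 mice, were Adprhl2 (r = 0.94), Ormdl2 (r = 0.85), Fam133b (r = 0.81), Bub3 (r = 0.80) and Nfyb (r = 0.80). These are descriptions of mice that share scaling and floor.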
